A study of Mus musculus with 8 samples.

Results

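The genes described here are 10 transcripts of the oxidant defence run by NRF2, chosen by symbol: Nfe2l2, Nqo1, Hmox1, Gclc, Gclm, Gsr, Srxn1, Txnrd1, Slc7a11 and G6pdx. A gene was represented by the probe set annotated with exactly that 1 symbol, and where there were several, by whichever had the highest mean over 8 arrays. Of the 10 symbols, 9 had such a probe set. G6pdx, glucose-6-phosphate dehydrogenase, had none, so its transcript is not analysed here and only its promoter window is counted. The 9 genes stand among 22180 genes represented in this way, of which 13112 exceeded the level filter and were tested. All 9 were among those tested.

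NRF2, encoded by Nfe2l2, is a transcription factor that is held low by the adaptor KEAP1, which passes it to a ubiquitin ligase. Oxidants and electrophiles disable KEAP1, and NRF2 then pairs with a small MAF protein on antioxidant response elements in its target genes. The targets make glutathione, recycle oxidised thiols, degrade haem and reduce quinones. Club cells, which secrete proteins onto the surface of the small airways, are rich in enzymes that turn inhaled chemicals into reactive products, and they rely on glutathione to deal with them.

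RNA of club cells from lungs of Atgl KO/cTg mice was compared with RNA of club cells from lungs of wt/cTg mice, 4 microarrays per genotype. Pnpla2, also called Atgl, encodes the lipase that starts the breakdown of stored triglyceride. Both genotypes carry cTg, which the labels do not expand. In the literature on Atgl knockout mice the name has been used for an Atgl transgene restricted to heart muscle that keeps knockout animals alive. The mice were 38 to 48 weeks old, untreated and on chow. Each array held a pool of mice, 4 per pool in Atgl KO/cTg (16 in all) and 3 or 4 per pool in wt/cTg (14 in all), so that errors reflect variation among pools. The study's design describes the arrays as 4 sets that each set Atgl KO/cTg against wt/cTg, but no label says which pools made up a set, and replicate numbers follow sample order.

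Pnpla2, the targeted gene, read 6.70 to 7.16 on the log2 scale in the Atgl KO/cTg pools and 8.62 to 8.86 in the wt/cTg pools (log2 difference -1.72, limma adjusted p = 0.000116). The sources used here do not say whether its probes lie in the deleted part. Correlations between arrays ran from 0.965 to 0.985. The wt/cTg replicate 4 pool stood apart: its Xist signal minus the mean of 3 Y-linked transcripts was -3.24, against 3.15 to 5.23 in the other 7 pools of both genotypes, and it lay at one end of the first principal component (29.3% of the variance), with Atgl KO/cTg replicate 2 at the other. Xist exceeded the Y-linked transcripts in every pool but wt/cTg replicate 4, so sex-linked transcripts were unevenly spread between the genotypes. The club cell marker Scgb1a1 averaged 12.92 in Atgl KO/cTg pools and 12.99 in wt/cTg pools, but markers of other cells also read far up the signal range, such as alveolar Sftpc (12.53 and 12.93) and B cell Ighm (12.86 and 12.41). In such bulk samples, fewer cells of a type and less RNA per cell cannot be told apart.

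RefSeq promoter windows (GRCm38.p6) were found for 7 of the 10 symbols. The 250 bases before the annotated start are printed for Nqo1 and Slc7a11, which had the largest differences, and for Srxn1, whose window held 2 matches to an antioxidant response element core. Capitals mark matches on either strand to TGACNNNGC or TGAGNNNGC, both forms of that core, or to TGATGCAA, the core of the amino acid response element bound by ATF4. The Nqo1 window is chr8:107403206-107403455, minus strand, the Slc7a11 window chr3:50443614-50443863, minus strand, and the Srxn1 window chr2:152105274-152105523, plus strand. The Slc7a11 gene record extends upstream of the start used for this window.
Nqo1: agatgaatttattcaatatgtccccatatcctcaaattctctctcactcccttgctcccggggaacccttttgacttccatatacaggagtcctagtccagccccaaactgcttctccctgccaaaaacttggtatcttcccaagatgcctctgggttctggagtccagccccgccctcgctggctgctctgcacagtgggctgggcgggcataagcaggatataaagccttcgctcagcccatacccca
Slc7a11: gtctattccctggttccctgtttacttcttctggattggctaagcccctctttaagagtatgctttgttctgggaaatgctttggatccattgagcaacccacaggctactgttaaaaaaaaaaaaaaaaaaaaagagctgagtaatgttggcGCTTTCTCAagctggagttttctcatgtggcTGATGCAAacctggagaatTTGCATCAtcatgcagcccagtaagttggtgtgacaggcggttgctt
Srxn1: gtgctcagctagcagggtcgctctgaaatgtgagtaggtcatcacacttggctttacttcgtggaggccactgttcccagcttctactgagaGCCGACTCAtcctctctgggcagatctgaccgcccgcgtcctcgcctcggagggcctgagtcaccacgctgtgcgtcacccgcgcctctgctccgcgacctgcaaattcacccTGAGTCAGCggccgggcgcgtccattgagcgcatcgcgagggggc

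In Slc7a11 the pair of amino acid response element cores lay at bases -66 to -59 and -47 to -40 from the start, on opposite strands, and a match to TGAGNNNGC lay at -97 to -89. TGATGCAA occurred in 0.791% of 32851 windows of the same length. In Srxn1 the matches to TGAGNNNGC lay at -158 to -150 and -45 to -37. The second of these overlaps TGAGTCA, the AP-1 site, which occurred once more in the window and was found in 4.46% of all windows. Either form of the antioxidant core was found in the windows of 6 of the 7 genes (Nfe2l2, Gclm, Srxn1, Slc7a11, G6pdx and 1 of the 3 Txnrd1 windows), against 23.0% of all windows. The first count is per gene, over 9 windows in all, and the second per window, so they are not the same measure. No match was present in the Nqo1 window. A match is a run of letters and not a tested site.

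The comparison asks how loss of Atgl relates to transcript levels in the isolated cells. Slc7a11 and Nqo1 gave the highest readings relative to wt/cTg, at about 1.75 and 1.49 times the wt/cTg level, while Nfe2l2 itself and Gclm lay within 0.04 of 0 on the log2 scale. The other 5 genes lay between 0.11 and 0.20 above 0. None of the 9 passed limma's test at an adjusted p of 0.05 over all genes tested, where the background was 0.0991% of genes (13 of 13112). At an unadjusted p under 0.05, 2 of the 9 were higher (Slc7a11 and Nqo1) and 0 lower, against 3.39% of all tested genes higher and 4.56% lower (1.91% and 5.44% after median centring of the arrays, with the count of the 9 again 2 and 0). In 1 of the 9, Nqo1, the groups did not overlap and Atgl KO/cTg was higher, against 1.74% of all tested genes. Of the 9 log2 differences 7 lay above 0, against 47.8% of all tested genes, and their median was 0.15, against -0.0073 over all tested genes. These counts describe genes measured on the same arrays and are not independent of each other.

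**Figure D1:**
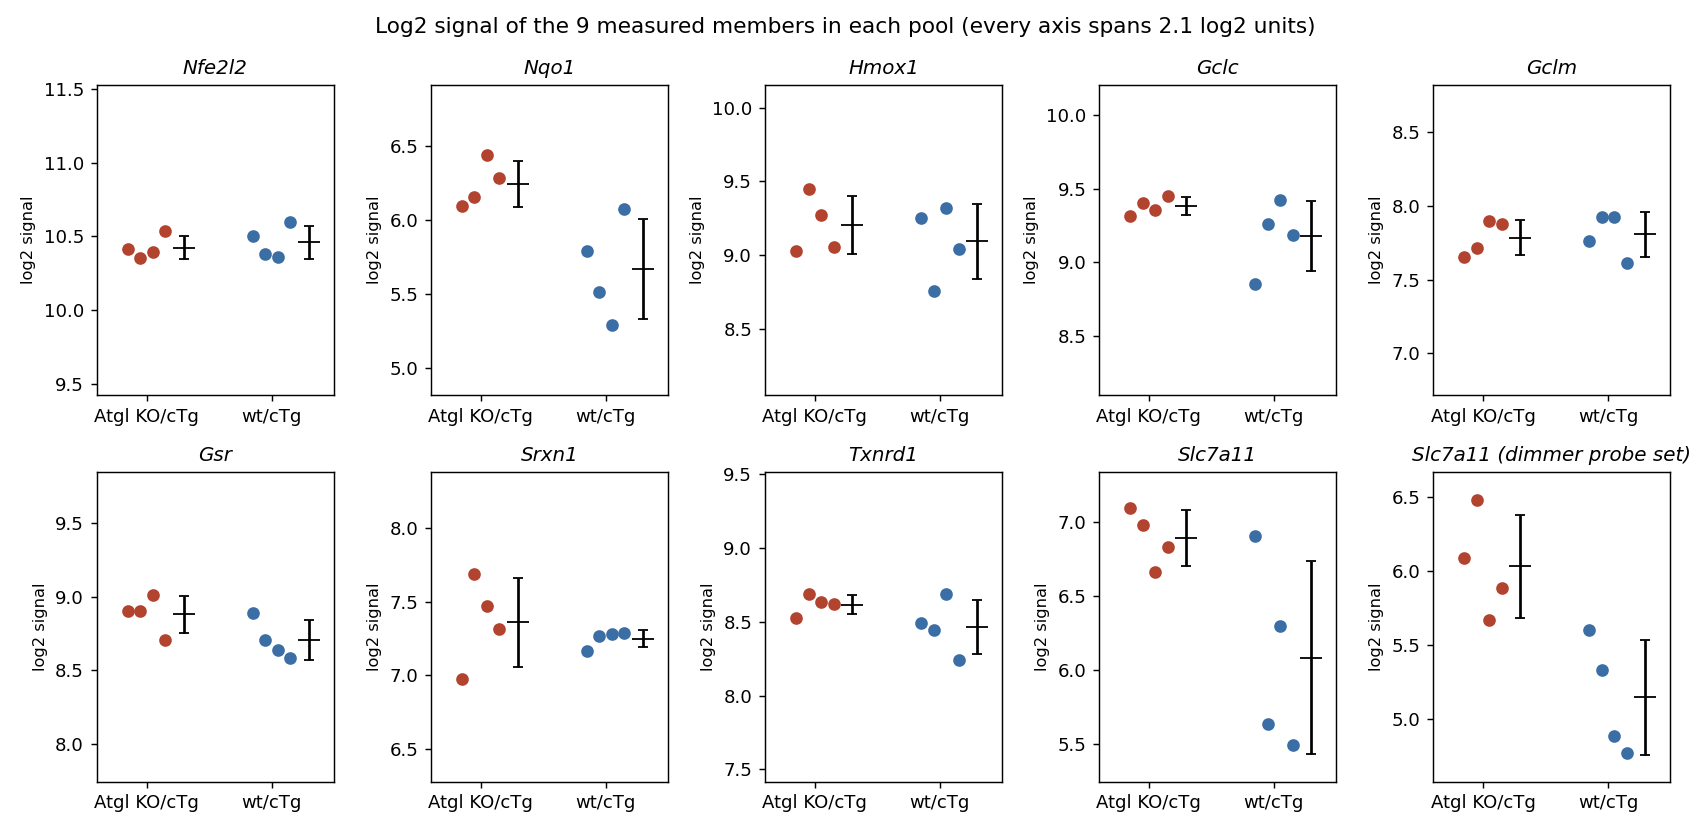
Log2 signal (vertical axis) of each of the 9 measured NRF2 genes in the 4 Atgl KO/cTg pools (red) and the 4 wt/cTg pools (blue), with the mean ± SD of each group as a black bar, and a panel for the second, dimmer probe set of Slc7a11. All 4 Atgl KO/cTg pools lie above the wt/cTg pools for Nqo1 (6.10 to 6.44 against 5.29 to 6.07), and Nfe2l2 overlaps (10.35 to 10.53 against 10.36 to 10.60).

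Nfe2l2, the transcription factor at the head of the pathway, read 10.41, 10.35, 10.39 and 10.53 in Atgl KO/cTg pools and 10.50, 10.38, 10.36 and 10.60 in wt/cTg pools. The groups overlapped, and the pools of both genotypes lay within a narrow band. The log2 difference was -0.037 (SE 0.07, 95% interval -0.20 to 0.12, limma adjusted p = 0.942, exact permutation p = 0.686). This is a transcript level, and NRF2 is controlled largely through degradation of the protein, which arrays do not measure.

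Slc7a11 encodes the light chain of the cystine/glutamate antiporter, which brings in the cystine that limits glutathione synthesis. Its brighter probe set read 7.09, 6.98, 6.66 and 6.83 in Atgl KO/cTg pools and 6.91, 5.63, 6.30 and 5.49 in wt/cTg pools. The Atgl KO/cTg pools kept close together, while the wt/cTg pools were widely spread, with replicate 1 as high as the Atgl KO/cTg pools and the other 3 below all of them. The Atgl KO/cTg mean was 6.89 ± 0.19, against a wt/cTg mean of 6.08 ± 0.65 (SD, n = 4 each). The log2 difference was 0.81 (SE 0.27, 95% interval 0.23 to 1.39, limma adjusted p = 0.462, exact permutation p = 0.0857), and it did not pass.

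The dimmer probe set of Slc7a11 averaged 5.14 in wt/cTg pools, under the level filter of 5.18, and exceeded the filter through its Atgl KO/cTg mean of 6.03, so its values are given as a description. It read 6.09, 6.48, 5.67 and 5.88 in Atgl KO/cTg pools and 5.60, 5.33, 4.88 and 4.76 in wt/cTg pools. Again wt/cTg replicate 1 was the highest of its group, but here it lay just under the lowest Atgl KO/cTg pool. The log2 difference was 0.89 (SE 0.21). Without wt/cTg replicate 1 the brighter probe set gave 1.09 (limma adjusted p = 0.0768), the lowest adjusted p of any of the 9 genes under any alternative. Without wt/cTg replicate 4, the pool that stood apart, it gave 0.61 (limma adjusted p = 0.763), its smallest difference with any pool left out.

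Nqo1 encodes a quinone reductase that is widely used as a readout of NRF2. It read 6.10, 6.16, 6.44 and 6.29 in Atgl KO/cTg pools and 5.79, 5.52, 5.29 and 6.07 in wt/cTg pools. All 4 Atgl KO/cTg pools were above all 4 wt/cTg pools, although the lowest Atgl KO/cTg pool and wt/cTg replicate 4 nearly touched. The signal was low, with the lowest wt/cTg pool, 5.29, close to the level filter of 5.18, and signal above background was not analysed. The Atgl KO/cTg mean was 6.25 ± 0.15, against a wt/cTg mean of 5.67 ± 0.34 (SD, n = 4 each). The log2 difference was 0.58 (SE 0.16, 95% interval 0.22 to 0.94). It ranked 156 of 13112 by p, with a limma adjusted p of 0.399 that did not pass and an exact permutation p of 0.0286, the smallest that 4 against 4 pools allow. A difference this high or higher was found in 59 tested genes (0.45%).

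The order of the pools differed between Nqo1 and the brighter probe set of Slc7a11, which stands for that gene here, although wt/cTg replicate 2 was low for both. In wt/cTg, replicate 4 was the lowest for Slc7a11 and the highest for Nqo1, and replicate 1 was the highest for Slc7a11. Among Atgl KO/cTg pools, replicate 1 was the highest for Slc7a11 and the lowest for Nqo1, and replicate 3 the reverse. The dimmer Slc7a11 probe set was instead highest in Atgl KO/cTg replicate 2 (6.48), and also lowest in replicate 3 (5.67). Measured as the root mean square difference between gene-centred values over the 8 arrays, the tested genes most like Nqo1 were Slc12a7 (0.177), Arfgap3 (0.184) and Scnn1g (0.193), where a gene with no variation would score 0.369. Those most like Slc7a11 were the chemokines Cxcl1 (0.222) and Ccl20 (0.241), then Atp2c2 (0.245), where a gene with no variation would score 0.581. These genes had log2 differences of 0.33 to 0.77 between genotypes, and none passed (limma adjusted p 0.435 to 0.636). Likeness was measured over the pools of both genotypes, so a higher mean in Atgl KO/cTg largely followed from the selection.

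**Figure D2:**
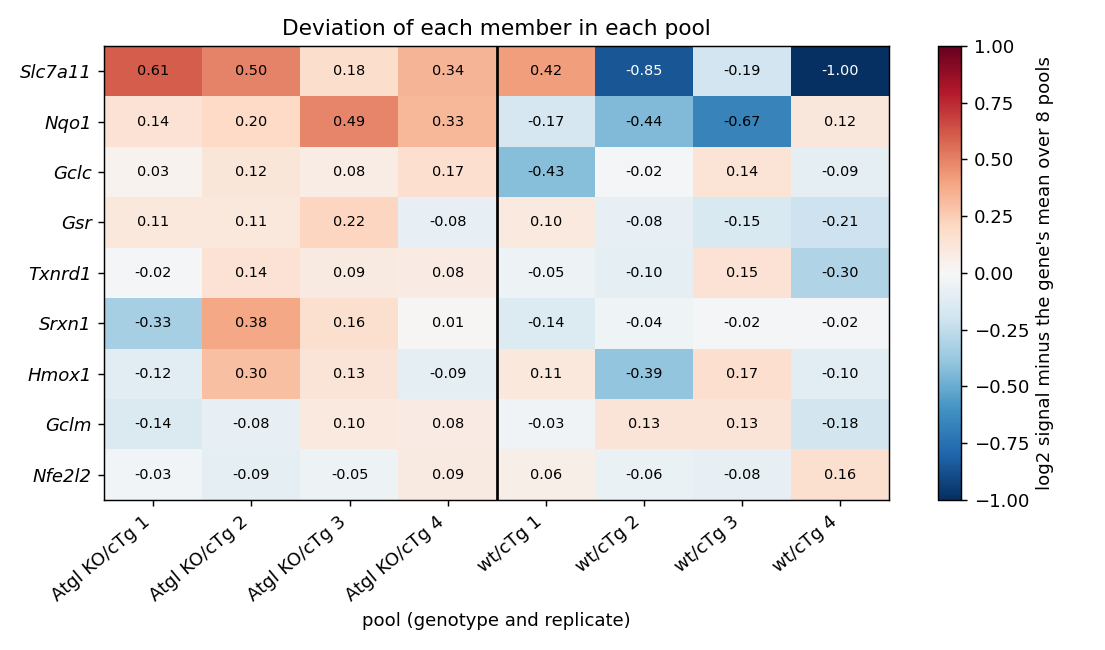
Log2 signal minus the gene's own mean over the 8 pools, for each NRF2 gene (rows) in each pool (columns, Atgl KO/cTg left of the line and wt/cTg right of it). Slc7a11 and Nqo1 carry the strongest colours, with Slc7a11 at -0.997 in wt/cTg replicate 4 and -0.85 in wt/cTg replicate 2, and Nqo1 at -0.67 in wt/cTg replicate 3.

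Gclc and Gclm encode the catalytic and modifier subunits of glutamate-cysteine ligase, the first step of glutathione synthesis. Gclc read 9.31, 9.40, 9.36 and 9.45 in Atgl KO/cTg pools and 8.85, 9.26, 9.42 and 9.19 in wt/cTg pools. The groups overlapped through wt/cTg replicate 3, and wt/cTg replicate 1 was the low one. The difference came to 0.20 (SE 0.11, 95% interval -0.040 to 0.44, limma adjusted p = 0.693, exact permutation p = 0.143).

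Gclm read 7.65, 7.71, 7.89 and 7.88 in Atgl KO/cTg pools and 7.76, 7.93, 7.93 and 7.61 in wt/cTg pools. The groups interleaved. Its difference of -0.023 on the log2 scale (SE 0.10, 95% interval -0.25 to 0.20, limma adjusted p = 0.981, exact permutation p = 0.771) turned sign when single pools were left out.

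Gsr encodes glutathione reductase, which returns oxidised glutathione to its reduced form at the cost of NADPH. It read 8.90, 8.90, 9.01 and 8.71 in Atgl KO/cTg pools and 8.89, 8.71, 8.64 and 8.58 in wt/cTg pools. In Atgl KO/cTg 3 pools were above all wt/cTg pools, and in wt/cTg 3 pools were below all Atgl KO/cTg pools. The overlap came from the lowest Atgl KO/cTg pool, replicate 4, and the highest wt/cTg pool, replicate 1. On the log2 scale the difference was 0.17 (SE 0.09, 95% interval -0.032 to 0.38, limma adjusted p = 0.693, exact permutation p = 0.0571).

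Txnrd1 encodes cytosolic thioredoxin reductase. It read 8.53, 8.68, 8.63 and 8.62 in Atgl KO/cTg pools and 8.49, 8.44, 8.69 and 8.24 in wt/cTg pools. All 4 Atgl KO/cTg pools were above the wt/cTg mean, but wt/cTg replicate 3 was the highest pool of all. A log2 difference of 0.15 resulted (SE 0.10, 95% interval -0.066 to 0.37, limma adjusted p = 0.765, exact permutation p = 0.200).

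Srxn1 encodes sulfiredoxin, which repairs over-oxidised peroxiredoxins. It read 6.97, 7.69, 7.47 and 7.32 in Atgl KO/cTg pools and 7.16, 7.26, 7.28 and 7.28 in wt/cTg pools. In contrast to Nqo1 and the brighter probe set of Slc7a11, the spread was in Atgl KO/cTg (SD 0.30, against 0.06 in wt/cTg). There replicate 1 was below every wt/cTg pool and the other 3 above them. On the log2 scale the genotypes differed by 0.11 (SE 0.14, 95% interval -0.19 to 0.42, limma adjusted p = 0.886, exact permutation p = 0.486).

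Hmox1 encodes haem oxygenase, which splits haem into biliverdin, iron and carbon monoxide and is also strongly made by macrophages. It read 9.03, 9.45, 9.28 and 9.06 in Atgl KO/cTg pools and 9.25, 8.76, 9.32 and 9.04 in wt/cTg pools. The groups overlapped over most of their range, with a single low pool, wt/cTg replicate 2. The log2 difference was 0.11 (SE 0.13, 95% interval -0.18 to 0.40, limma adjusted p = 0.884, exact permutation p = 0.514), and -0.0017 without that pool.

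**Figure D3:**
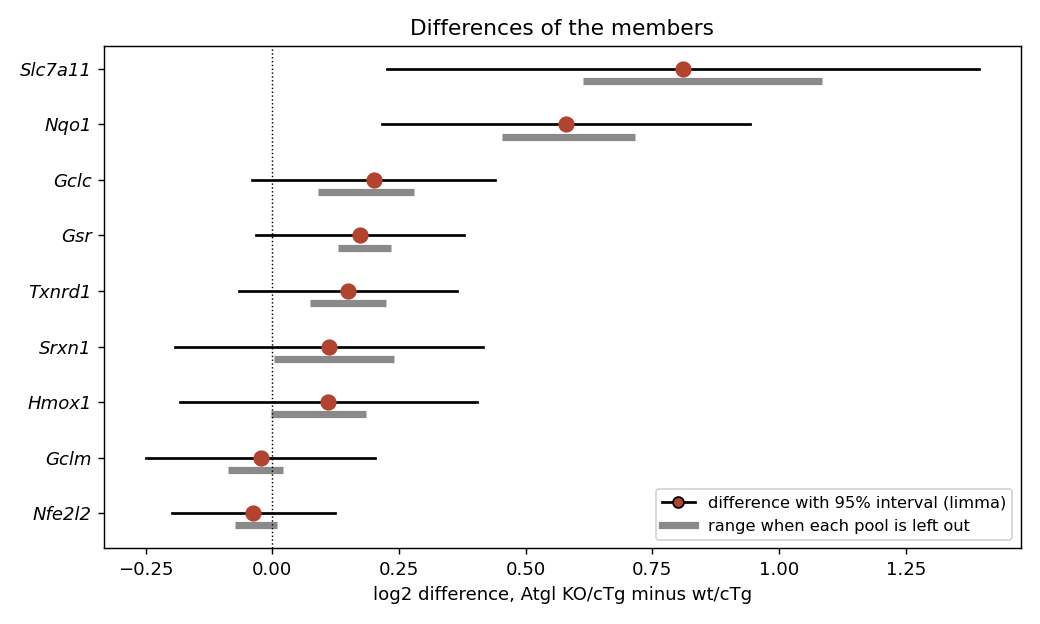
Log2 difference, Atgl KO/cTg minus wt/cTg, of each NRF2 gene (red point) with its 95% interval from limma (black line) and the range of differences when each of the 8 pools is left out (grey bar). The intervals of Slc7a11 (0.23 to 1.39) and Nqo1 (0.22 to 0.94) lie above 0 before adjustment over all genes, and those of the other 7 genes cross 0.

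Over the 9 genes, the Atgl KO/cTg pools had mean deviations from the genes' own means of 0.03, 0.18, 0.15 and 0.10, and the wt/cTg pools -0.01, -0.21, -0.06 and -0.18. These means lean on Slc7a11, at 0.61 in Atgl KO/cTg replicate 1 and -0.85 and -0.997 in wt/cTg replicates 2 and 4. Median deviations were -0.016, 0.14, 0.13 and 0.081 in Atgl KO/cTg and -0.033, -0.084, -0.022 and -0.10 in wt/cTg. By the median, Atgl KO/cTg replicate 1 nearly touched wt/cTg replicate 3. The wt/cTg replicate 4 pool held the lowest value of 4 of the 9 genes and Atgl KO/cTg replicate 1 was above the gene's mean for 4 of 9, against 7 or 8 of 9 in the other Atgl KO/cTg pools. With each pool left out, the median of the 9 differences ran from 0.12 to 0.19, and 7 or 8 differences lay above 0. The number of genes with groups that did not overlap, higher in Atgl KO/cTg, was 2 when Atgl KO/cTg replicate 1 or 4 was left out (4.68% and 2.80% of all tested genes) and 3 when wt/cTg replicate 1 or 3 was (4.45% and 2.63% of all tested genes). The number higher at an unadjusted p under 0.05 was 3 when Atgl KO/cTg replicate 4 was left out (2.78% of all tested genes), 3 when wt/cTg replicate 1 was (4.31%), and 4 when wt/cTg replicate 3 was (2.67%).

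Transcripts of the proteins that control NRF2 lay near 0. Of 10 tested regulators, 0 passed in either direction over all genes, also 0 at an unadjusted p under 0.05, with 5 above 0, 5 below and a median log2 difference of 0.01. Keap1, the repressor, had an Atgl KO/cTg mean of 6.78 ± 0.06, against a wt/cTg mean of 6.83 ± 0.13 (SD, n = 4 each), a difference of -0.048 (95% interval -0.27 to 0.17, limma adjusted p = 0.947). Cul3, the scaffold of the ligase to which KEAP1 delivers NRF2, was at -0.099, and Sqstm1, which draws KEAP1 into autophagy, at 0.030. The small MAF partners Mafg, Maff and Mafk were at 0.10, 0.097 and 0.11. Bach1, which competes with NRF2 for the same DNA elements, was at -0.14, the farthest from 0 in this list. Nfe2l1, a related factor, was at -0.049, and Gsk3b and Btrc, parts of a KEAP1-independent route of NRF2 degradation, were at 0.030 and -0.0068.

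Other genes of glutathione, thioredoxin and NADPH metabolism did not pass over all genes either, 0 of 15, 0 of 9 and 0 of 6 in either direction. The glutathione list had a median log2 difference of 0.034 with 9 genes above 0 and 6 below, and 0 at an unadjusted p under 0.05. Farthest from 0 were Gpx2, an epithelial glutathione peroxidase and NRF2 target (0.30, limma adjusted p = 0.692), Abcc1, which exports glutathione conjugates (0.22, 0.660), and Glrx, a glutaredoxin (0.17, 0.784). Slc3a2, the heavy chain that carries the Slc7a11 protein to the cell surface, was named after its values were seen, and had an Atgl KO/cTg mean of 9.74 ± 0.14, against a wt/cTg mean of 9.58 ± 0.19 (SD, n = 4 each, difference 0.15, 95% interval -0.072 to 0.38, limma adjusted p = 0.765).

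In the thioredoxin and peroxiredoxin list the median was -0.039, with Txnrd3 at -0.28, Txnip, an inhibitor of thioredoxin, at -0.22, and Sesn1 at -0.076. Txnrd3 and Txnip were the 2 of 9 under an unadjusted p of 0.05, both lower (limma adjusted p = 0.616 and 0.524), against 4.56% of all tested genes. The NADPH list, which includes the pentose phosphate pathway steps that follow G6pdx, had a median of 0.097, with Pgls at 0.14, Pgd at 0.12 and Idh1 at 0.11 (limma adjusted p 0.789 to 0.792), and 0 of 6 under an unadjusted p of 0.05.

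Detoxification enzymes and transporters known as NRF2 targets lay nearly all above 0, 10 of 11, against 47.8% of all tested genes. Their median was 0.13, and 0 passed over all genes. At an unadjusted p under 0.05, 3 of 11 were higher, against 3.39% of all tested genes. These were Osgin1, an oxidative stress-induced growth inhibitor, at 0.31 (limma adjusted p = 0.524), Aox1, an aldehyde oxidase, at 0.25 (0.600) and Cbr1, a carbonyl reductase named after its values were seen, at 0.19 (0.564). Abcc4, an efflux pump, was at 0.21 and not among them (0.798). This list and the 9 genes had the highest medians of the lists in the pathway, but not of all lists. Medians were 0.58 for goblet, 0.52 for neutrophil, 0.22 for ciliated and 0.16 for club cell markers. Every other marker list had a median below 0. No test of one list against another was made.

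The haem and iron, superoxide and ATF4 lists had medians just below 0. Over all tested genes, 3.39% were higher and 4.56% lower at an unadjusted p under 0.05, to be set beside the counts that follow. In the haem and iron list 0 of 6 passed (median -0.018), with 1 higher at an unadjusted p under 0.05. This was Blvra, which reduces the biliverdin made by haem oxygenase, at 0.25 (limma adjusted p = 0.524), and Fech was at -0.12 and Blvrb at -0.0995. In the superoxide and peroxide list 0 of 4 passed (median -0.0100) and 1 was lower at an unadjusted p under 0.05, extracellular Sod3 at -0.37 (limma adjusted p = 0.580), with mitochondrial Sod2 at 0.11 and cytosolic Sod1 at -0.067. ATF4, which also drives Slc7a11, had a list of 10 genes with a median of -0.023 and 0 passing (1 higher and 1 lower at an unadjusted p under 0.05). The higher one was Slc7a5, an amino acid exchanger, at 0.35 (limma adjusted p = 0.531), and the lower one was Atf4 itself at -0.17 (0.600). Ddit3 was at -0.24 (0.712).

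**Figure D4:**
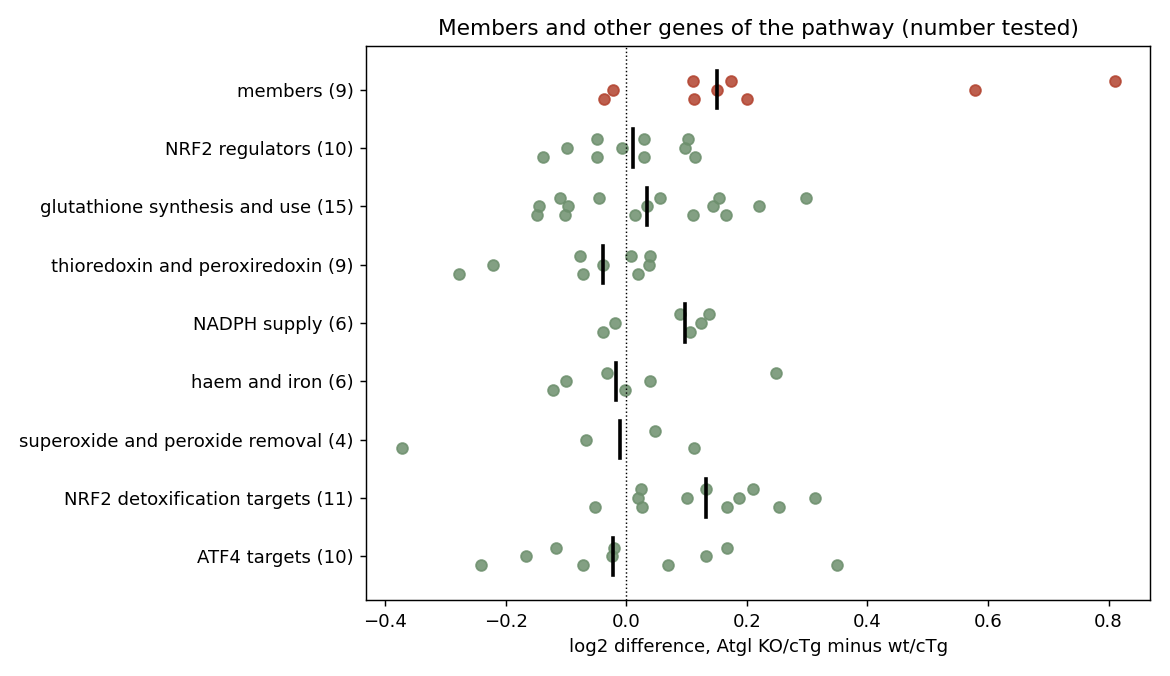
Log2 difference, Atgl KO/cTg minus wt/cTg, of every tested gene (points) of the 9 NRF2 genes (red) and of 8 other lists of the pathway (green), with the median of each list as a black line and the number tested in brackets. Medians run from -0.039 in the thioredoxin list to 0.15 in the 9 NRF2 genes, and Slc7a11 and Nqo1 lie apart from every other gene shown.

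Markers of other cell types differed between the same pools, and their part in the values above was not tested. Alveolar type 2 transcripts were lower in Atgl KO/cTg, 4 of 10 over all genes, against 0.0991% of all tested genes called in either direction. The 4 were Lamp3 (-1.53), Etv5 (-1.01), Slc34a2 (-1.01) and Sftpc (-0.41, limma adjusted p 0.0294 to 0.0477 for the 4). The mean level of the list did not overlap between Atgl KO/cTg (10.11 to 10.40) and wt/cTg (10.57 to 11.10). No gene of any other marker list passed. Goblet cell genes lay above 0 in 8 of 8 (Muc5ac 1.04), against 47.8% of all tested genes. Their list levels were 8.04 to 9.02 in Atgl KO/cTg and 7.21 to 8.20 in wt/cTg. The goblet list was highest in Atgl KO/cTg replicate 2 and lowest in replicate 4. The brighter Slc7a11 probe set was highest in replicate 1, the dimmer one in replicate 2, and both were lowest in replicate 3. In wt/cTg, the goblet list and both probe sets were highest in replicate 1 and lowest in replicate 4. This was not particular to the goblet list. The wt/cTg replicates 1 and 4 were also the highest and lowest for club (11.04 and 10.82), B cell (9.43 and 8.82) and T and NK cell lists (8.29 and 7.55). Neutrophil genes lay above 0 in 8 of 8 tested (Mmp8 0.87, S100a8 0.49; 6.92 to 7.83 in Atgl KO/cTg and 6.74 to 7.28 in wt/cTg) and ciliated cell genes in 8 of 8 tested (Spag6l 0.55, Foxj1 0.35; 7.96 to 8.42 and 7.57 to 8.21). Club cell genes lay above 0 in 7 of 9 tested (Cckar 0.41, Scgb1a1 -0.069), with list levels of 11.02 to 11.10 in Atgl KO/cTg and 10.82 to 11.04 in wt/cTg. At an unadjusted p under 0.05, 5 of these 9 were higher, against 3.39% of all tested genes. So were 5 of 8 goblet, 4 of 8 neutrophil, 2 of 8 ciliated cell and 2 of 15 macrophage genes. Lower at that threshold were 9 of 10 alveolar type 2, 3 of 7 alveolar type 1 and 2 of 8 fibroblast genes. The same held for 1 of 7 endothelial and 1 of 2 basal cell genes, against 4.56% of all tested genes. B cell and T and NK cell genes had 0 in either direction.

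The counts that follow are to be set beside the 47.8% of all tested genes that lay above 0. Macrophage genes, of interest for Hmox1, lay above 0 in 7 of 15 (Ctsk 0.79, Marco -0.0012), with list levels of 8.94 to 9.18 in Atgl KO/cTg and 8.94 to 9.09 in wt/cTg. Fibroblast genes lay below 0 in 8 of 8 (Tcf21 8.06 in Atgl KO/cTg, against 9.06 in wt/cTg; Col1a1 -0.092), alveolar type 1 genes in 6 of 7 (Limch1 -0.68, Ager -0.53) and endothelial genes in 5 of 7 (Cldn5 -0.50, Pecam1 -0.27). B cell genes lay below 0 in 3 of 5 tested (Ighm 0.46, Cd79a -0.079) and T and NK cell genes in 5 of 7 (Klrb1c -0.26, Cd3e -0.15). Of the basal cell list only 2 genes exceeded the level filter (Krt14 -0.41, Trp63 0.10).

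**Figure D5:**
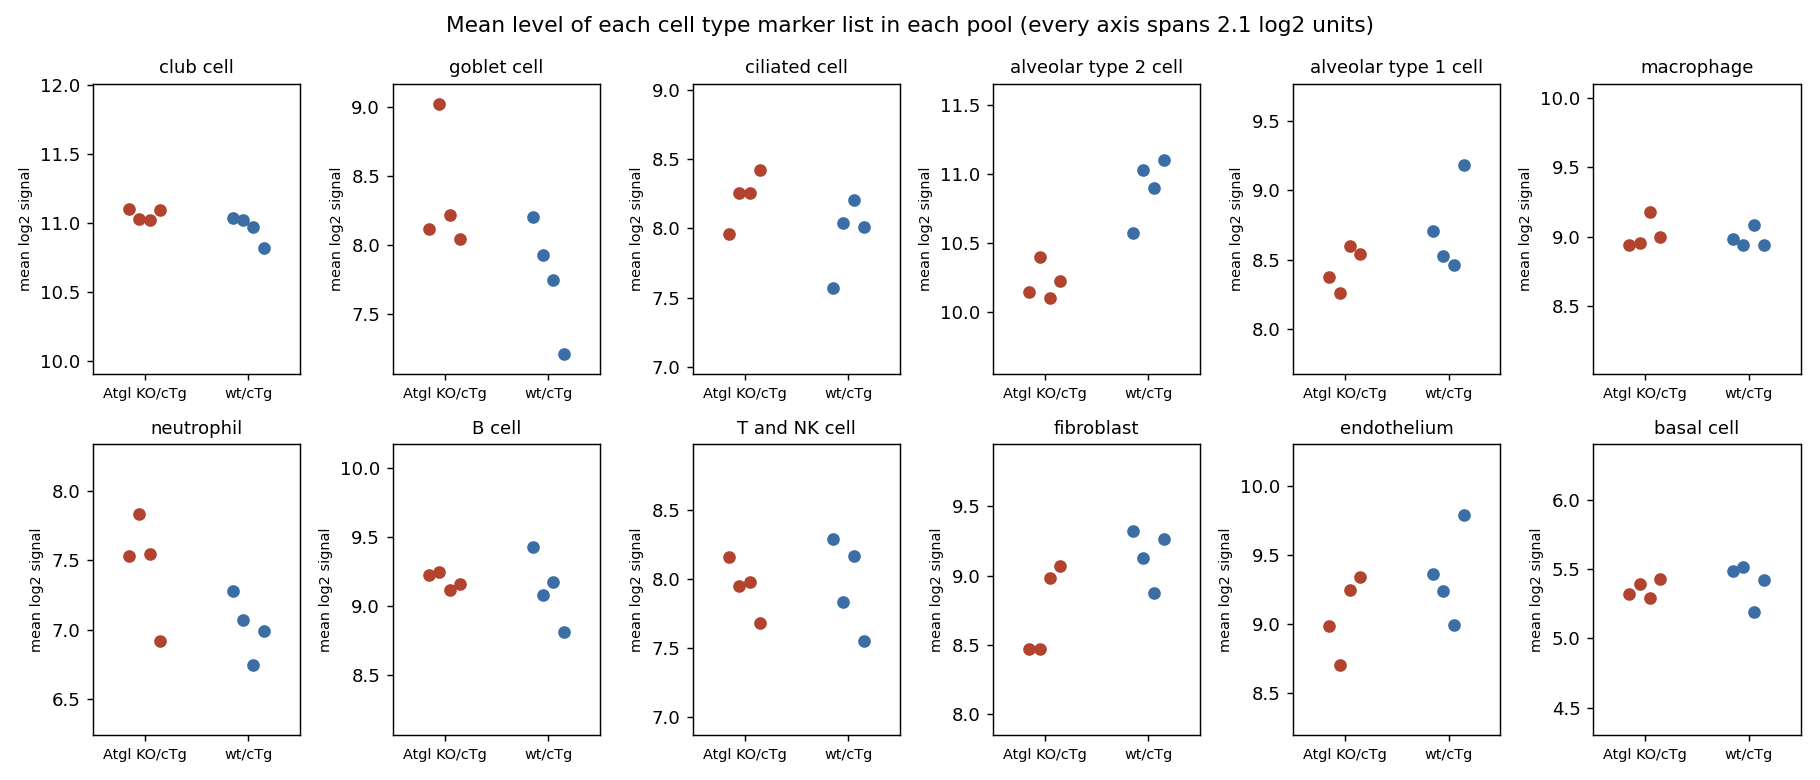
Mean log2 signal (vertical axis) of each cell type marker list in each Atgl KO/cTg pool (red) and each wt/cTg pool (blue). The groups separate for alveolar type 2 genes, lower in Atgl KO/cTg, and overlap for goblet, neutrophil and macrophage genes.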

How the data were processed

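Gene expression was measured with biotin-labelled microarrays in 8 pools of club cells. RNA extraction used a miRNeasy Micro kit and DNase, and amplification of 50 ng used a NuGEN Ovation Pico kit, per the labels' protocols. The table deposited by the authors holds 1 log2 signal for each probe set on each array (array medians 5.12 to 5.24), used unchanged. The values themselves show the log2 scale, and the authors' software, background correction and normalization are not named in any source used here. Signal above background, slides and scan dates were not analysed here, and the number of arrays limits the precision.

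Of 41345 probe sets, 23521 had 1 annotated symbol, 1814 several and 16010 none. Genes were tested where their mean exceeded the probe set median of 5.18. The genotype test was limma 3.58.1 under R 4.3.3 (lmFit, eBayes with a variance trend), two-sided, with Benjamini-Hochberg adjustment over 13112 genes. Exact two-sided permutation tests ran over 70 arrangements. Steps were tested on simulated data. Figures used matplotlib 3.10.9. The 9 genes, the pathway and marker lists and the tests were chosen with earlier results of these data known. Named are the 9 genes, all NRF2 regulators tested, the 3 genes farthest from 0 in each other pathway list, any that passed, 1 or 2 genes per marker list (the first measured and the one farthest from 0; for alveolar type 2 cells those that passed), the 3 genes most like Nqo1 and Slc7a11, and Pnpla2. Alternatives covered the level filter, variance prior, normalization, array weights, probe sets, age, mouse numbers, sex-linked transcripts and each array left out.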

Additional observations from a re-analysis of the deposited data

Results flagged for a closer look

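Srxn1 read 7.16 in wt/cTg replicate 1, which is far from the other wt/cTg pools at 7.26 to 7.28 relative to the narrow range of that group. It was the only one of 18 groups of 4 pools (9 genes in 2 genotypes) with such a gap, and chance gives one in about 5% of groups.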

How the results depend on the processing

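None of the 9 genes passed under any of the 10 alternatives or with any of the 8 pools left out, and the median of their differences kept its sign throughout (0.12 to 0.17 under the alternatives, 0.12 to 0.19 with each pool left out). Pnpla2 passed in all 18 refits (-1.78 to -1.62 with each pool left out). With each pool left out, Slc7a11 ran from 0.61 (without wt/cTg replicate 4) to 1.09 (without wt/cTg replicate 1). Nqo1 ran from 0.45 (without wt/cTg replicate 3) to 0.71 (without wt/cTg replicate 4), and Gsr from 0.13 (without Atgl KO/cTg replicate 3) to 0.24. Srxn1 ran from 0.0025 without Atgl KO/cTg replicate 2 to 0.24 without Atgl KO/cTg replicate 1, Gclc from 0.091 without wt/cTg replicate 1 to 0.28 without wt/cTg replicate 3, and Txnrd1 from 0.075 without wt/cTg replicate 4 to 0.22 without wt/cTg replicate 3. The count of genes called over all genes, 13, was 7 without a level filter, 1 without a variance trend, 1 after quantile normalization, 23 with array weights, 7 with age as a covariate, 4 with runs of mouse numbers as a block, and 1 to 25 with each pool left out. The cause was not tested. Signs turned for Gclm (0.031 with runs of mouse numbers as a block, and up to 0.021 and down to -0.088 with each pool left out), Hmox1 (-0.0017 to 0.19 with each pool left out) and Nfe2l2 (-0.074 to 0.0089 with each pool left out). Nqo1 was not tested at a level filter of 6, which it does not reach. No paired analysis was possible because the labels do not say which pools form each of the 4 sets of the design and give no shared replicate numbers.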
